A study of Mus musculus with 28 samples.

Results

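Coding regions in short internal exons are stretches of m6A signal whose centre lies in protein-coding sequence of an exon that is flanked by exons on both sides and is shorter than 400 nt. To find them, same-strand peaks of all 14 peak lists were joined wherever they shared 1 bp or more, and a joined region was kept where its midpoint lay in coding sequence of its own strand, outside 3′UTRs, more than 200 nt from every stop codon, and where every overlapping exon of the GENCODE vM21 basic annotation was internal and under 400 nt. This gave 851 of 33937 regions, in 767 genes. They are called members below and are set beside the 3503 coding regions in internal exons of 400 nt or more and the 2098 coding regions in last exons. No measured value other than the position of the peaks was used to choose them.

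The study mapped m6A by multiplexed m6A-seq in early postnatal mouse brain. The animals were first-generation hybrids of PWK/PhJ (PWK) and C57BL/6J (C57): the mother was PWK and the father C57 for F1i, and the reverse for F1r, so every animal carried 1 genome of each strain and none was treated or mutant. Whole tissue gave 14 immunoprecipitated (IP) libraries, all labelled as poly(A) RNA, although the methods also name ribo-depleted RNA without saying for which libraries. P0 cerebellum had 2 (male F1i and F1r), while P7 cerebellum, P0 cerebrum and P7 cerebrum each had 4 (male and female of either cross), P0 being the day of birth and P7 an age of 7 days. F1i and F1r libraries matched for tissue, age and labelled sex made 7 pairs. Samples were barcoded and pooled before immunoprecipitation, and the sample sheet of the study gives cerebellum and cerebrum separate batches. A difference between tissues cannot be told apart from one between batches in any comparison below.

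N6-methyladenosine is placed on mRNA in the nucleus by the METTL3-METTL14 complex, mostly at DRACH sequences such as GGAC, and is read by proteins that act on splicing, decay and translation. Most m6A of mRNA lies near stop codons, in 3′UTRs and in long internal exons. Exon junction complexes, which are left just upstream of each splice junction, are known to keep the methyltransferase from nearby sequence, and short internal exons, which such complexes package, usually carry little m6A.

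The sequences of 3 sets of members are printed to show the features that the results below count, GGAC and runs of A and G. The members shown were picked because they carry these features, so the prints are examples and no comparison: of the members called in all 14 libraries 42.3%, of those called more often in cerebrum 36.9% and of those called more often in cerebellum 18.9% had GGAC within 25 nt of the strongest summit, and 62.2% of the last were rich in A and G there. Each is 29 bases of the exon, 5′ to 3′ on the strand of the gene, read from the RefSeq copy of the mm10 assembly. In the first set, of members called in all 14 libraries, the print is centred on the GGAC nearest the strongest summit, unless the exon ended first, and capitals mark GGAC.
Tubb2b exon 3 of 4, chr13:34128872-34128900, minus strand: gatcttcaggccGGACaacttcgtgttcg
Ncald exon 5 of 7, chr15:37397298-37397326, minus strand: gactgccccagcGGACatttatcaatgga
Msl1 exon 2 of 9, chr11:98799335-98799363, plus strand: tgtggccggagtggaaagGGACacaaaag
Taok3 exon 18 of 20, chr5:117266023-117266051, plus strand: aaagacactgaaGGACgagcagacgagga
Sptbn1 exon 26 of 36, chr11:30117892-30117920, minus strand: ctcatcaactctGGACattcagatgctgc

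The second set holds members called in every cerebrum library of both ages or of 1 age, printed in the same way with GGAC in capitals.
Lrp1 exon 6 of 89, both ages, chr10:127605535-127605563, minus strand: aaccacggccatGGACttcagttatgcca
Tbl1xr1 exon 15 of 16, both ages, chr3:22209585-22209613, plus strand: aagttggagccagtgcttcGGACggttca
Cdh11 exon 4 of 13, P0, chr8:102673971-102673999, minus strand: caccaagacattGGACcgagaggagagag
Rragb exon 6 of 11, P0, chrX:153153227-153153255, plus strand: tgaacttgaaaaGGACatgcactactatc
Hapln1 exon 4 of 5, P7, chr13:89605262-89605290, plus strand: ttgtctGGACcaGGACgcagtgattgctt

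The third set holds members called in all 6 cerebellum libraries and in 0 of 8 cerebrum libraries. Here the print is centred on the strongest summit, and capitals mark each GAA or GAG, except for Anp32b exon 4, which is centred on its GGAC.
Ptma exon 3 of 5, chr1:86529521-86529549, plus strand: gGAGGAAGAGGAGGAGGAGGAAGAAggtg
Nefl exon 3 of 4, chr14:68086753-68086781, plus strand: agGAGAAgGAGAAaGAGGAGgGAGAGGAA
Anp32a exon 5 of 7, chr9:62374721-62374749, plus strand: gGAGGAAGAGgatgtGAGtgGAGAGGAGg
Anp32b exon 5 of 7, chr4:46469957-46469985, plus strand: GAAgatGAGgatgtaGAAgGAGAAgatga
Anp32b exon 4 of 7, chr4:46468753-46468781, plus strand: ggtggatggtgtGGACaaagaggaagagg
Map4k4 exon 13 of 31, chr1:39997122-39997150, plus strand: taaaGAAGAGGAAGAGAGGAGacgggcag
Upf2 exon 2 of 22, chr2:5957734-5957762, plus strand: aGAGGAAGAGttaaaGAAGAAgGAAGAGg

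The 14 lists held 16687 to 26208 peaks, and relative depth, recovered from the peak values and set to a mean of 1, ranged from 0.566 to 1.13 in cerebellum and from 0.772 to 1.59 in cerebrum. A region was counted as called in a library where any of its peaks lay in it. No list repeated another, since the regions called in both of a pair of libraries were 46.8% to 81.1% of those called in either. All 8 genes listed for cerebrum carried a region in every cerebrum library and 4 or 5 of them in the cerebellum libraries, whereas 5 to 7 of the 8 genes listed for cerebellum did so in cerebellum libraries and 2 or 3 in cerebrum libraries. Of 5 marker genes each, choroid plexus had 0 to 3 with a region in cerebellum libraries and 1 to 2 in cerebrum libraries, meninges 1 in every library, endothelium 3 to 4, microglia 2 to 4 and red blood cells 0. The P7 cerebrum F1r library labelled male had 7 Xist regions and 0 regions in the 4 Y-linked genes, and the P7 cerebrum F1r library labelled female had 3 Xist regions and 1 region in the Y-linked gene Kdm5d, which goes against both sex labels. No comparison by sex was therefore made, and tissue, age and cross results were also computed without these libraries. In peak lists of bulk tissue, less m6A, a lower transcript level, fewer cells of a type and less RNA per cell cannot be told apart.

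The share of exons that held a region midpoint rose steeply with exon length. Among the internal coding exons of genes that carried any region, 0 of 3285 exons under 50 nt held a region midpoint, which allows a share of up to 0.0913% by the limit of 3 counts (the upper end of the Wilson interval was 0.117%). The share was 0.0984% of exons of 50 to 99 nt (95% Wilson interval 0.0656 to 0.148%), 0.370% of those of 100 to 149 nt, 0.890% of those of 150 to 199 nt and 3.04% of those of 200 to 299 nt. It was 21.4% of exons of 300 to 399 nt (interval 19.3 to 23.7%), 71.8% of those of 400 nt to under 800 nt and 95.3% of longer ones. Longer exons hold more GGAC motifs. Region midpoints per 100 GGAC motifs numbered 0.269 in exons of 50 to 99 nt, 2.60 at 200 to 299 nt and 12.0 at 300 to 399 nt. They numbered 24.2 at 400 nt to under 800 nt and again 24.2 beyond that. The part of motif number, and of placement by midpoint, in the rise with length was not tested. These shares describe exons, which are not replicates, and the intervals cover counting error only. They also count midpoints only, and a region can reach beyond a short exon. By the strongest summit, 1179 regions lay in short internal exons. Of these, 746 were members and 428 had their midpoint outside exons. At the limit of 400 nt the share changed without a step: 29.1% of exons of 360 to 379 nt and 39.2% of those of 380 to 399 nt held a region, against 45.5% of those of 400 to 419 nt and 61.2% of those of 420 to 439 nt.

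**Figure D1:**
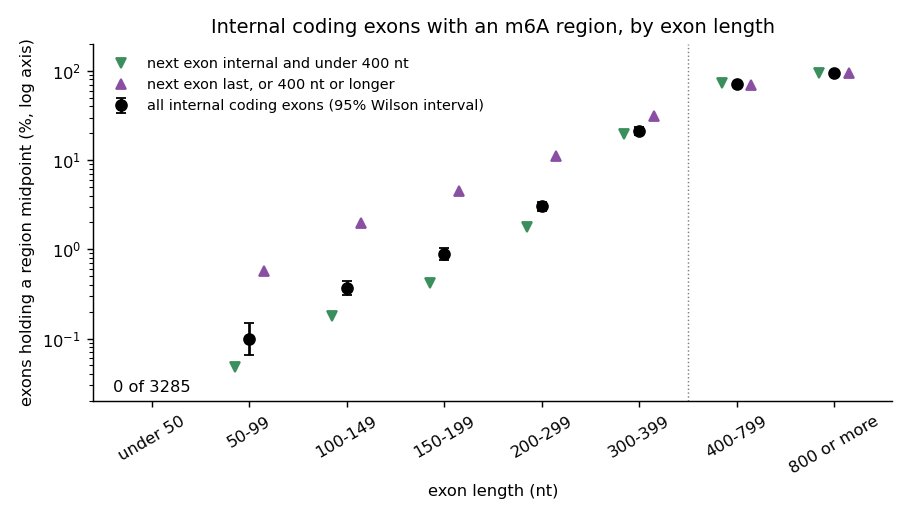
Percent of internal coding exons that hold a region midpoint (vertical log axis) by exon length in nt (horizontal axis), for all exons with 95% Wilson intervals (black) and by the exon that follows (triangles); the dotted line marks 400 nt. The share climbs from 0.0984% at 50 to 99 nt to 95.3% at 800 nt or more, and from 50 to 399 nt it is higher in every length class where the next exon is the last or is long.

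The exons that held members were themselves on the long side, with a median of 242 nt (range 51 to 399), against 123 nt for the 83871 other short internal exons of genes with a region. They were also richer in the motif. GGAC occurred 6.33 times per kb in the 840 member exons covered by the annotation's longest coding transcripts and 4.84 times per kb in the other short exons, and 75.0% against 44.5% held at least 1 GGAC. Within a length class the difference was smaller, with 60.2% against 44.2% at 100 to 149 nt, 78.1% against 67.6% at 200 to 299 nt and 88.5% against 80.3% at 300 to 399 nt. The reading frame of the motif did not set them apart, since the A of GGAC stood at the second position of a codon, as in the aspartate codon GAC, in 59.2% of the motifs of member exons and 58.4% of those of other short exons. Exons that another annotated transcript of the gene skips made up 5.36% of member exons and 4.40% of the others.

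The exon downstream of a member was often the last one. It was the last exon of the transcript for 320 of 851 members (37.6%) and an internal exon of 400 nt or more for 55, and for the remaining 476 it was another short internal exon. Counted over exons, 43.9% of member exons and 10.6% of other short exons were followed by the last exon or by one of 400 nt or more. Such exons held a region more often in every length class from 50 to 399 nt, with 1.99% against 0.180% at 100 to 149 nt, 10.997% against 1.77% at 200 to 299 nt and 31.0% against 19.4% at 300 to 399 nt. At 400 nt to under 800 nt the shares were 70.0% and 72.3%.

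These groups of members differed in where the signal lay. Where the last exon followed, the strongest summit lay a median of 2 nt from the 3′ end of the exon, and 220 of 320 summits (68.8%) were within 25 nt of that junction. Another region lay in the last exon for 289 of these 320 members (90.3%). Of all regions, 34.0% lay in 3′UTRs or near a stop codon. No share is given here for last exons after short exons without a member, so the 90.3% describes these members only. A median of 59.4% of the member's width fell inside the short exon, the rest extending into the intron. Where a short internal exon followed, the summit lay a median of 126 nt from the 3′ end and 135 nt from the 5′ end, 65 of 476 summits (13.7%) were within 25 nt of the downstream junction, 50 members (10.5%) had a region in the next exon, and the median region was wholly inside the exon. GGAC was searched for along the genome, so a window near a junction held intron as well as exon. The part of intron sequence in the shares was not tested. GGAC lay within 25 nt of the strongest summit in 217 of 476 members (45.6%) followed by a short internal exon. It did so in 94 of 320 members (29.4%) followed by the last exon. In contrast, the first 100 nt of the following exon held a GGAC for 53.4% of the members before a last exon and 38.0% of those before a short internal exon. The peak caller extended reads by 80 nt along the genome, not along the spliced transcript. Its part in the position of these summits was not tested.

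**Figure D2:**
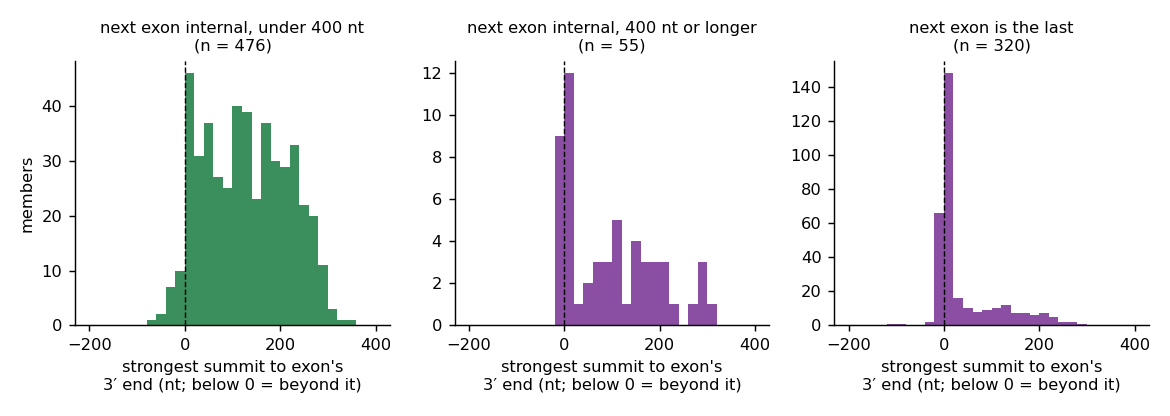
Number of members (vertical axis) by distance in nt from the strongest summit to the 3′ end of the short exon (horizontal axis, with values below 0 beyond the exon), for the 476, 55 and 320 members whose next exon is short and internal, long and internal, or the last. The summits before a last exon pile up at the junction, with a median of 2 nt, while those before a short exon are spread over the exon.

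Members were called in fewer libraries than other coding regions. A member was called in a median of 5 of 14 libraries, against 12 for regions in long internal exons and 14 for regions in last exons. All 14 libraries called 97 members (11.4%), against 40.3% of regions in long internal exons and 52.5% of those in last exons, and 158 members (18.6%) were called in 1 library, against 7.37% and 6.67%. Over all 33937 regions the median was 7 libraries, 27.2% were called in all 14 and 18.1% in 1. The share called in 1 library was thus close to that of all regions. The median member was 157 nt wide, against 329 nt for regions in long internal exons and 449.5 nt for those in last exons. Any peak in a region counted as a call, and the part of width in these counts and in the ranks below was not tested. The median member had a fold enrichment over the local background of 6.48, averaged over the libraries that called it. These fold values had a median of 9.25 in long internal exons and 12.7 in last exons.

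**Figure D3:**
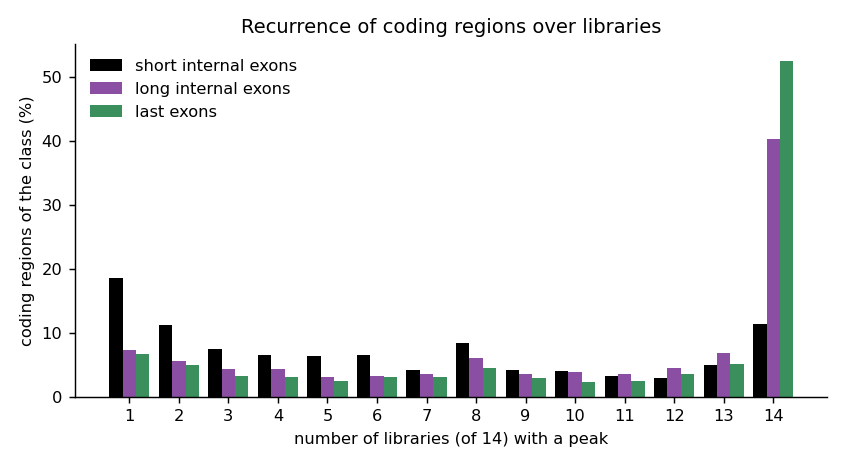
Percent of the coding regions of each class (vertical axis) called in 1 to 14 libraries (horizontal axis), for the 851 members in short internal exons (black) and for regions in long internal and last exons. Members are spread over all numbers of libraries with 18.6% in 1 library and 11.4% in 14, whereas 40.3% and 52.5% of the other classes were called in 14.

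Within each list members also ranked lower. Peaks were ranked by −log10 q inside their own list and expressed as percentiles, with 100 for the strongest peak. The median percentile of the members of a library was 42.1 ± 3.09 (SD, n = 14), and it lay below that of regions in long internal exons in 14 of 14 libraries, by a mean of 16.6 percentile points (difference −16.6 ± 3.73, SD). Against regions in last exons the difference was −24.9 ± 2.33, again lower in 14 of 14 libraries. Two-sided exact sign-flip permutation tests over libraries gave p = 0.000122 for both, the smallest value possible, and adjusted p = 0.000163 over the 4 tests of rank and motif. Leaving out the members followed by a last or long exon gave −20.2 and −28.5, with the same p.

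A few members were nevertheless among the strongest peaks of the lists. The 10 members called in all 14 libraries with the highest mean percentile were in Tubb2b, Ncald, Ogdh, Msl1, Anks1b, 1810013L24Rik, Fry, Rad52, Neo1 and Epc2, with mean percentiles from 97.4 down to 87.3. Tubb2b, a β-tubulin of developing neurons, had percentiles of 92.1 (lowest), 99.3 (median) and 99.6 (highest) in cerebellum and of 93.6, 97.3 and 99.4 in cerebrum. Its summit lay 1 nt from the 3′ end of exon 3, next to the last exon, its fold enrichment was modest, at 5.31 (median) in cerebellum and 7.91 in cerebrum, and near-identical tubulin genes may share reads with it. Ncald, which encodes the neuronal calcium sensor neurocalcin δ, stood at 92.5, 94.1 and 97.4 in cerebellum and at 87.6, 94.6 and 97.7 in cerebrum, with the whole region inside its exon of 397 nt and a GGAC 11 nt from the summit. Both genes ranked high in every library of both tissues.

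Ogdh, a subunit of the 2-oxoglutarate dehydrogenase of the citric acid cycle, stood at 83.4, 90.0 and 90.9 in cerebellum and at 94.9, 96.9 and 98.0 in cerebrum, so that the tissues did not overlap. Fry, a large protein that binds microtubules, likewise ranked from 61.9 to 93.0 in cerebellum and from 95.6 to 96.7 in cerebrum. Rad52, which acts in DNA repair by homologous recombination, had the highest mean fold enrichment of all members, 54.2, with percentiles of 87.9, 89.7 and 92.5 in cerebellum and of 82.4, 89.6 and 93.6 in cerebrum, which overlap. Percentiles belong to the list of a library, and the tissues are separate batches. The median percentile of members averaged 40.1 over the cerebellum libraries and 43.5 over the cerebrum libraries. How usual it is that ranges do not overlap between the tissues is not given here. Msl1, of the MSL complex that acetylates histone H4, had its summit at the very end of exon 2. Anks1b, a protein of the postsynaptic density, Fry, Neo1, a receptor of netrins and repulsive guidance molecules, and Epc2, of the NuA4 acetyltransferase complex, had the last exon downstream and their summit 0 to 2 nt from the junction.

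The motif GGAC was rarer at the summits of members than at those of the other classes. In each library, the best summit of every region was searched for a GGAC whose A lay within 25 nt. The search ran along the genome, so near a junction it read intron bases too. The share was 40.1% ± 2.08 (SD, n = 14) for members, 51.6% ± 4.29 for regions in long internal exons and 46.5% ± 4.88 for those in last exons. The difference was −11.4 percentage points ± 4.16 (SD) from long internal exons, lower in 14 of 14 libraries (p = 0.000122 by the exact sign-flip permutation test, adjusted p = 0.000163), and −6.40 ± 4.86 from last exons, lower in 13 of 14 (p = 0.000244 by the exact test, adjusted p = 0.000244). For comparison, a window of 51 nt at the exon midpoint held GGAC in 31.1% of member exons and 22.7% of other short internal exons. The difference depended on which members were counted. Without the members followed by a last or long exon, the member share was 51.0% ± 3.50 (SD, n = 14). The difference from long internal exons was then −0.631 points (exact p = 0.696), and that from last exons turned to 4.42 points higher (exact p = 0.0319). This setting was chosen after seeing the data, and it left the regions of the other 2 classes unfiltered. The part of the following exon in the difference was not tested. Leaving out only the members within 200 nt of a stop codon along the spliced transcript, of which there were 147, gave −6.89 (exact p = 0.000122) and −1.84 (exact p = 0.147).

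A second sequence feature separated the tissues. A summit was called purine-rich where at least 70% of the 51 nt of genome around it were A or G. This measure was added after the sequences of the cerebellum members had been seen. Among the best summits of members, 11.6% (lowest), 18.9% (median) and 26.1% (highest) were purine-rich in the 6 cerebellum libraries, against 2.00%, 2.32% and 3.72% in the 8 cerebrum libraries. The groups did not overlap, and the means were 19.1% ± 4.85 (SD) and 2.47% ± 0.546. The difference of 16.6 percentage points gave p = 0.000333 by a two-sided exact permutation test of library labels, the smallest value possible, and the same adjusted p over 4 added tests. In numbers, a cerebellum library held 36 to 104 such members and a cerebrum library 7 to 18. In P7 libraries alone the difference was 19.0 points (exact p = 0.0286, the smallest that 4 against 4 allows), and without the P7 cerebrum F1r libraries it was 16.5.

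The same feature was weaker in the other classes. In long internal exons 6.54% ± 0.884 of the summits were purine-rich in cerebellum and 2.75% ± 0.282 in cerebrum, and in last exons 5.55% ± 0.404 and 2.39% ± 0.435. The tissue difference was larger for members than for long internal exons by 12.8 points and than for last exons by 13.5 points (two-sided exact permutation tests, p = 0.000333 for both, the smallest possible). In members followed by a short internal exon the shares reached 29.6% ± 8.57 in cerebellum and 2.17% ± 0.837 in cerebrum. At the exon midpoint, 13.2% of windows in member exons and 3.34% of those in short internal exons without a region were purine-rich. Over the members themselves, 120 had a purine-rich strongest summit, and 100 of these were called in cerebellum libraries only. They made up 100 of the 162 members called only in cerebellum (61.7%), 6 of the 303 called only in cerebrum (1.98%) and 14 of the 386 called in both tissues (3.63%). Of the 120, 26 had GGAC within 25 nt of the summit (21.7%), against 326 of all 851 members (38.3%). Relative depth overlapped between the tissues, and the tissue and the batch of the libraries cannot be told apart here.

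**Figure D4:**
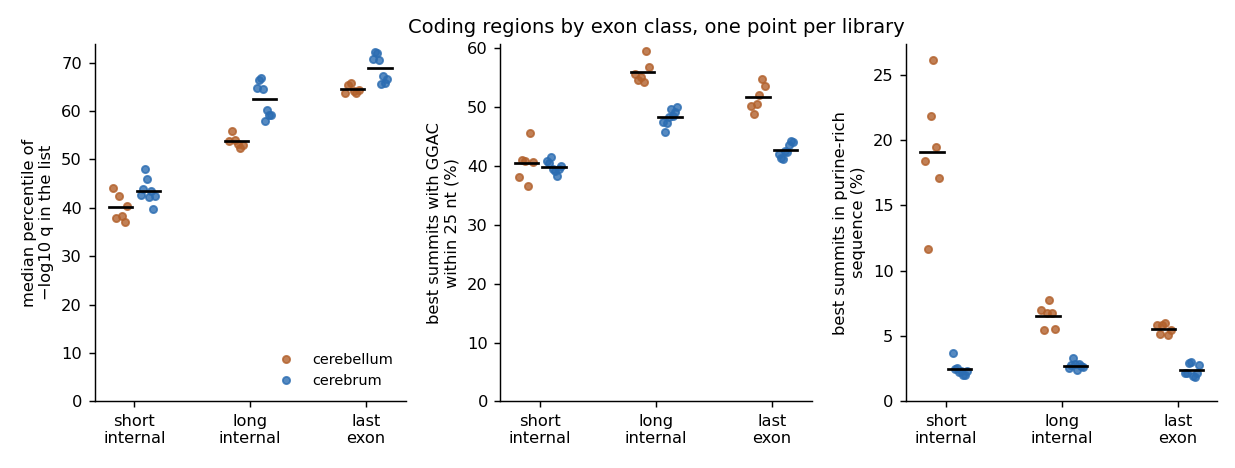
One point per library (6 of cerebellum in brown, 8 of cerebrum in blue, black bars for means) for coding regions in short internal, long internal and last exons: median percentile of −log10 q in the list (left), percent of best summits with GGAC within 25 nt (middle) and percent of best summits in purine-rich sequence (right). Members rank lowest in every library, and only their purine-rich share in cerebellum, 11.6% to 26.1%, rises above 10%.

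Members differed between the tissues more often than regions in general. For each of the 24722 regions that at least 1 library called and at least 1 did not, the calls in either tissue were compared by Fisher's exact test (2-sided), with Benjamini-Hochberg adjustment over all of them. Of the 754 members among them, 84 (11.1%) were called more often in cerebrum and 37 (4.91%) more often in cerebellum at an adjusted p of at most 0.05, against 7.78% and 1.87% of all regions tested. An unadjusted p under 0.05 was reached by 193 members. A call in all 8 cerebrum and 0 of 6 cerebellum libraries was seen for 47 members and the reverse for 21. Fisher's exact test gave p = 0.000333 and adjusted p = 0.00660 for each. No share over all regions is given here for the 193, 47 and 21 or for the counts in other settings. These counts describe the members only. P7 libraries alone (4 against 4) gave 0 calls, where a complete separation had an adjusted p of 0.192 by the exact test, and the set without the P7 cerebrum F1r libraries gave 75. Leaving out 1 library gave 70 to 131 calls, and the number fell by more than 1.5 times, to between 70 and 74, without the P0 cerebellum male F1i library or any of the 4 P7 cerebellum libraries. Another exonic region of the gene was called in all 14 libraries, and so in both tissues, for 60 of the 84 cerebrum members. This held for 18 of the 37 cerebellum members and, over all 851 members, for 548.

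Of the named members of cerebrum, those in Lrp1, Abca1, Tbl1xr1, Dnm1l and Exoc5 were all called in 8 of 8 cerebrum and 0 of 6 cerebellum libraries. Lrp1, an endocytic receptor of lipoproteins, had percentiles of 61.9 (lowest), 74.0 (median) and 77.2 (highest) over the cerebrum libraries, with its summit on the A of the GGAC printed above. Where a library had to cover at least 50% of a region to count, the Lrp1 difference fell from 100 to 25 percentage points of the libraries (Fisher's exact test, adjusted p = 0.691). Abca1, which exports cholesterol from cells, had 63.2, 67.7 and 75.0, and its summit lay 3 nt past the end of exon 49, next to the last exon. Tbl1xr1, of the NCoR corepressor complex, had 62.6, 65.5 and 75.6 in an exon of 102 nt that also precedes the last exon. Of these 5 members, 4 preceded the last exon.

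Dnm1l, the dynamin-related protein of mitochondrial fission, had percentiles of 52.2, 59.9 and 76.7, and Exoc5, of the exocyst complex, had 39.97, 60.9 and 71.5. With the same cover of at least 50%, the Exoc5 difference was 87.5 points and no longer passed (Fisher's exact test, adjusted p = 0.0514). Of the 84 cerebrum members, 0 were purine-rich, against 14.1% of all members, and 31 (36.9%) had GGAC at the strongest summit, against 38.3%. Of these 84, 31 were followed by the last exon and 46 by a short internal exon.

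The 6 named members of cerebellum, called in 6 of 6 cerebellum and 0 of 8 cerebrum libraries, lay in exon 3 of Ptma, exon 3 of Nefl, exons 4 and 5 of Anp32b, exon 13 of Map4k4 and exon 5 of Anp32a. Ptma encodes prothymosin α, a very acidic nuclear protein, and its exon of 97 nt stood at percentiles of 93.2 (lowest), 97.5 (median) and 99.7 (highest), with 90.2% A and G around the summit and no GGAC in the exon. Its transcript has processed copies in the genome, which may share its reads. Nefl, the light neurofilament subunit, had percentiles of 73.6, 87.05 and 92.4 with 94.1% A and G. All 6 cerebellum libraries ranked both regions high, although the fold enrichment was low, with medians of 6.62 for Ptma and 4.13 for Nefl.

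Anp32a and Anp32b encode acidic nuclear phosphoproteins that bind histones. Anp32b had percentiles of 69.3, 79.4 and 92.5 at exon 4 and of 52.4, 75.7 and 89.8 at exon 5, and Anp32a had 41.5, 74.2 and 88.1. A member in exon 5 of the related Anp32e was called in the same way, with 76.5% A and G. Map4k4, a serine/threonine kinase, had 60.6, 71.3 and 78.0 at exon 13, and its exon 12 was also called in all 6 cerebellum libraries and 0 cerebrum libraries. Of the 37 cerebellum members, 23 (62.2%) were purine-rich, with a median A and G content of 78.4% against 54.9% over all members, 7 (18.9%) had GGAC at the strongest summit and 18 had GGAC anywhere in the exon. Their exons had a median length of 176 nt, against 249.5 nt for the cerebrum members. Others among them, chosen here after their values were seen, were in Set, another acidic chromatin protein, with 82.4% A and G, and in the calcium-binding chaperone gene Canx, with 96.1%. The purine-rich sequences were seen in these libraries before their share was tested in them.

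**Figure D5:**
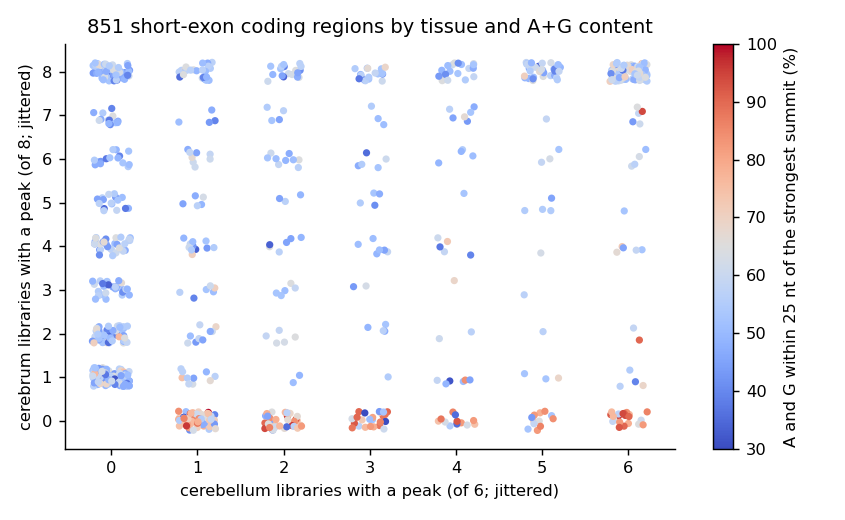
Each point is 1 of the 851 members, placed by the number of cerebellum libraries (horizontal, of 6) and cerebrum libraries (vertical, of 8) that called it, with a small random shift, and coloured by the percent of A and G within 25 nt of its strongest summit. The row of members called in 0 cerebrum libraries holds 100 of the 120 purine-rich members.

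In number per library, the 6 cerebellum libraries held 315 ± 72.3 members (SD) and the 8 cerebrum libraries 434 ± 73.7, a difference of 119. An exact permutation test of library labels gave p = 0.0130, which did not pass after adjustment over the 4 tests of number and share (adjusted p = 0.0519). As a share of the regions of a library, members made up 2.06% ± 0.354 in cerebellum and 2.17% ± 0.0621 in cerebrum, a difference of 0.115 percentage points (exact permutation p = 0.390). The lowest share, 1.53%, belonged to the P7 cerebellum female F1r library, which was also the shallowest, and the highest, 2.52%, to the P7 cerebellum male F1r library. The cerebellum libraries thus spanned both ends of the range.

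Between ages the share of members called in only 1 age was close to the background. In cerebrum, they made up 2.18%, 2.18%, 2.25% and 2.22% of the regions of the P0 libraries and 2.05%, 2.18%, 2.13% and 2.18% of those of the P7 libraries, a P7 minus P0 difference of −0.0739 percentage points (exact permutation p = 0.114, where 4 against 4 libraries allow 0.0286 at the smallest). This difference depended on the setting: it was −0.171 points (exact p = 0.0286) without members followed by a last or long exon, but 0.0482 points with exons under 200 nt and 0.00649 points where peaks had to cover at least 50% of a region. A call in all 4 P0 and 0 of 4 P7 cerebrum libraries was seen for 29 of the 689 members called in cerebrum (4.21%, against 4.79% of all regions called there) and the reverse for 4 (0.581%, against 0.496%). These counts are a description with no test, since 4 against 4 libraries cannot pass a correction over all regions. The P0 cerebrum libraries had a mean relative depth of 1.25 (0.997 to 1.59), against 0.893 (0.772 to 1.05) at P7. They held a mean of 22521 regions, against 17288 at P7. The part of depth in these counts was not tested.

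The P0 members with the highest percentiles were in Cdh11, Rragb, Slc27a3, Nrxn2 and Slc22a15. Cdh11, a cadherin of mesenchymal and neural cells, had percentiles of 57.1 (male F1i), 51.6 (male F1r), 66.9 (female F1i) and 33.6 (female F1r) at P0 and no call at P7 or in cerebellum. Rragb, a GTPase that signals amino acids to mTORC1, had 52.7, 47.1, 51.7 and 37.0 in the same order, and the synaptic adhesion gene Nrxn2 had 42.8, 40.03, 51.6 and 49.0 at exon 14. Slc27a3, of the fatty acid transport proteins, and the solute carrier gene Slc22a15 were each also called in the P0 cerebellum male F1r library. Of the 29 P0 members, 22 had GGAC at the strongest summit (75.9%), the highest share of any set of members examined apart from the 4 of P7, 23 were followed by a short internal exon and 1 was purine-rich.

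The 4 members of P7 cerebrum were in Hapln1, Vsir, Syt12 and Epha10, and all 4 had GGAC at the strongest summit. Hapln1, the link protein that joins hyaluronan and proteoglycans in perineuronal nets, had percentiles of 22.9 (male F1i), 42.7 (labelled male, F1r), 51.0 (female F1i) and 38.1 (labelled female, F1r) and was also called in 2 P7 cerebellum libraries. Vsir, an immune checkpoint receptor, had 37.3, 21.9, 34.8 and 13.3, and was called in 4 cerebellum libraries. Syt12, of the synaptotagmin family, had 21.5, 21.0, 38.6 and 10.5, and the Eph receptor gene Epha10 had 6.41, 13.4, 20.04 and 11.3. Of these percentiles, only that of Hapln1 in the female F1i library was above 50. Without the P7 cerebrum F1r libraries, 43 P0 members and 4 P7 members had this pattern. No share over all regions is given for that setting, so these counts are not set against a background.

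No difference between the crosses was detectable in the members. The share of members was 2.11% ± 0.167 (SD, n = 7) in F1i and 2.14% ± 0.297 (SD, n = 7) in F1r libraries, and the mean difference within pairs, F1r minus F1i, was 0.0248 percentage points ± 0.153 (SD), higher in 4 of 7 pairs (p = 0.688 by exact sign-flip permutation, 2-sided). A call limited to the same cross in at least 5 of the 7 pairs, and to the other cross in none, was seen for 0 of 851 members in either direction, a pattern that 0.0295% and 0.0354% of all regions showed for F1i and F1r. No test per region was made, because 7 pairs cannot pass a correction over all regions.

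Members were found in several families of genes, described here by counts. The list of axon guidance and synaptic adhesion (74 genes, 69 with a region) held 26 members in 20 genes, of which 7 of the 23 tested were called more often in cerebrum and 0 more often in cerebellum, against 11.1% and 4.91% of all members tested and 7.78% and 1.87% of all regions. The members included those of Nrxn2, the giant cadherin Fat4 and the receptor phosphatase Ptprd. Fat4 was called in 8 cerebrum and 0 cerebellum libraries at exon 8 (median percentile 59.3) and at exon 11 (55.8), and Ptprd in 7 and 0 at exon 20 (46.4). The members of this list had a median of 6 libraries and a median percentile of 36.5, against 5 and 30.3 over all members, and 0 of 26 were purine-rich.

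The list of chromatin and transcription regulators (75 genes, 70 with a region) held 25 members in 22 genes, with 3 called more often in cerebrum and 2 more often in cerebellum among 21 tested, against the same 11.1% and 4.91% of all members, and 10 of 25 were purine-rich, against 14.1% of all members. The histone-methylation reader Kmt2e was called in all 14 libraries at exon 16, with median percentiles of 47.9 in cerebellum and 65.0 in cerebrum, and the remodeller Chd6 in all 14 at exon 36, with 70.4 and 51.3. Smarca4, the BRG1 ATPase of BAF complexes, had members in exons 32 and 33, each called in 1 cerebellum library, and Chd8 had 2 in exon 2, called in 2 and 1 cerebrum libraries. The genes of this list also held 144 regions in long internal exons.

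Among the 50 genes of splicing and the exon junction complex, 31 had a region and 4 held members, 5 in all. Upf2, Upf3a and Upf3b, which carry out nonsense-mediated decay with the exon junction complex, held 4 of these 5, and all 4 were purine-rich and called in cerebellum libraries only. Upf2 was called in 6 of 6 cerebellum libraries at exon 2 (percentiles 16.7, 24.2 and 34.0) and passed the tissue test, Upf3a was called in 4 at exon 7 and Upf3b in 2 at exon 9 and 1 at exon 7. The splicing factor gene Srrm2 was called in 3 cerebellum libraries at exon 12. None of the core subunits of the complex on the list held a member.

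The m6A machinery itself (20 genes, 15 with a region) held 5 members in 4 genes, with 0 of 5 called by tissue and a median of 2 libraries. Prrc2a, a proposed m6A reader, was called in 8 cerebrum libraries (median percentile 62.6) and 3 cerebellum libraries (27.9) at exon 11, and Zc3h13, a subunit of the writer complex, in 4 cerebellum libraries at exon 9, both next to an exon of 400 nt or more. The writer subunit Virma was called in 1 library and the proposed reader Hnrnpa2b1 in 2 and 1 libraries at exons 9 and 7, at a low fold enrichment of 1.69 and 1.49. The list of ion channels and neurotransmitter receptors (60 genes, 51 with a region) held 7 members in 7 genes. Cacna1d and Cacna1c, subunits of voltage-gated calcium channels, were called in both tissues just before the last exon, in 8 and 7 libraries, and the sodium channel gene Scn3a in 6 cerebrum libraries.

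The list of cytoskeleton and motors (63 genes, 54 with a region) held 8 members in 7 genes, and of the 7 tested, 1 was called more often in cerebrum and 2 more often in cerebellum (11.1% and 4.91% of all members). Sptbn1, a spectrin of the membrane skeleton, was called in all 14 libraries at exon 26, with percentiles from 76.6 to 84.5 in cerebellum and from 54.7 to 68.4 in cerebrum. Myh10, a non-muscle myosin, was called in 13 libraries at exon 2, with percentiles from 20.2 to 39.98 in cerebellum and from 67.8 to 87.1 in cerebrum. Neither range overlapped between the tissues, and the order was opposite. No share of members or of all regions with such separate ranges is given here, so these 2 are examples only. Map1a, a microtubule-associated protein, was called in 8 cerebrum and 0 cerebellum libraries, 2 nt past the end of an exon that precedes one of 8104 nt, and Rims2 of the presynaptic active zone in 8 and 2.

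Most genes held 1 member (695 of 767), 60 held 2 and 12 held 3. Members of 1 gene often differed. Of the 3 members of Taok3, a kinase of the stress response, those of exons 17 and 18 were called in all 14 libraries and that of exon 19 in 13, and exon 18 ranked from 92.9 to 96.3 in cerebellum and from 46.1 to 68.9 in cerebrum. The opposite held for exon 2 of Lrp6, a Wnt coreceptor, called in all 14 libraries with percentiles from 12.0 to 67.3 in cerebellum and from 82.4 to 92.5 in cerebrum. How usual such separate ranges are is not given here either. Exons 6 and 12 of Lrp6 were called in 8 and 5 cerebrum libraries and 0 cerebellum libraries. Phf20l1, a reader of methylated lysine, was called in 7, 2 and 11 libraries at exons 10, 19 and 20.

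Icam5, an adhesion protein of telencephalic neurons, was called in 8 cerebrum and 2 cerebellum libraries at exon 8, in 5 and 0 at exon 9 and in 1 and 0 at exon 4. Arap2, a GTPase-activating protein, was called in 13 libraries at exon 32, before the last exon, and in 3 and 2 cerebrum libraries at exons 6 and 17. Conversely, Cdk11b, a cyclin-dependent kinase, was called in 6, 5 and 3 cerebellum libraries at exons 5, 6 and 9 and in 0 cerebrum libraries, and the third member of Map4k4, at exon 22, in 1 cerebellum library. Exons of 1 gene share its transcript level, so these members are not independent of each other.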

How the data were processed

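m6A-seq peak lists of 14 IP libraries were used; the 14 inputs were not analysed here. Per the labels and methods, the authors aligned reads to an mm10 genome with strain differences masked (HISAT2 2.1.0, fastp 0.21.0 in the submitters' processing notes) and called peaks per library and strand with MACS2 2.1.2, without a fragment model, with an extension of 80 nt and without pooling. The control of each call is not given in the sources used here. The deposited ratio is the fold enrichment at the summit, and the deposited −log10 p and −log10 q are the authors' significance values. The deposited score is 10 times −log10 q cut to an integer, and it was left aside; the deposited summit offset gave the summits. Fold and −log10 p together returned the local background, whose lowest common value gave relative depth. The files used here hold no read counts.

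Peaks were merged at an overlap of 1 bp, placed by midpoint on GENCODE vM21 basic, and compared by presence, by percentile within a list and by sequence at the best summit (Python 3.11.15, scipy 1.17.1, pysam 0.24.0). Library labels were tested by exact permutation and presence by Fisher's exact test with Benjamini-Hochberg adjustment, and the steps were tested on simulated data. Libraries of a group are separate samples of the labels, and p-values measure the spread between them. The named members were the 10 strongest called in all 14 libraries, up to 6 per tissue passing the test, up to 5 per age, and the genes with most members overall (8, ties by summed libraries) and per list (up to 4). Some members this rule named are not reported here. The members and lists were chosen with earlier results of these data known. Sequences are from RefSeq GRCm38.p6 (mm10), the C57 reference.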

Additional observations from a re-analysis of the deposited data

Results flagged for a closer look

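In P0 cerebrum, the female F1i library had 542 members, against 478 to 487 in the other 3 libraries, which set it apart from its group. It was also the deepest library, with a relative depth of 1.59, and its share of members, 2.25%, was not set apart. Of 15 group values examined in this way, 1 stood out, and chance alone sets apart about 1 in 20.

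The difference between members and regions in long internal exons was not the same in the tissues for 2 measures of sequence. The purine-rich share of members minus that of long internal exons was 12.5 percentage points ± 4.09 (SD) over the 6 cerebellum libraries and −0.277 ± 0.652 over the 8 cerebrum libraries, a difference of 12.8 points, and against last exons the difference between the tissues was 13.5 points. The mean GGAC share of members was 40.5% in cerebellum and 39.9% in cerebrum. That of long internal exons was 56.0% in cerebellum and 48.3% in cerebrum. The member share minus that of long internal exons was −15.5 points in cerebellum and −8.38 points in cerebrum. The difference was −7.15 points (two-sided exact permutation test of library labels, p = 0.000333 for each of these comparisons, the smallest possible). Without purine-rich summits the last value was −2.93 points (exact p = 0.0483). The tissues are separate batches, and these cannot be told apart.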

How the results depend on the processing

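The settings below changed the sign, the size or the test of several results. With exons under 200 nt, the cerebrum minus cerebellum difference in members per library was 19.5 and that in share −0.0722 percentage points, the P7 minus P0 share was 0.0482, the F1r minus F1i share −0.00801, and 43 members differed by tissue and 7 by age. Where peaks had to cover at least 50% of a region, the 3 shares were −0.0308, 0.00649 and −0.0161. Lists of equal size gave 37.9 members per library and 19 members of 1 age. P7 libraries alone gave 60.5 and 0 members by tissue. Without the P7 cerebrum F1r libraries 75 differed by tissue, and without both P7 cerebrum pairs the cross difference was −0.00242. The P7 minus P0 share passed the exact permutation test with a stop codon distance also along the transcript (−0.161) and with regions in annotated exons as denominator (−0.436), and the GGAC difference from last exons no longer did with that distance (−1.84). Leaving out the members followed by a last or long exon, an alternative chosen after seeing the data, gave −0.171 for the P7 minus P0 share, −0.631 and 4.42 for GGAC against long and last exons, and 70 members by tissue. For the counts of members by tissue and by age in this section, no share over all regions is given. The cause of these changes was not tested.

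Leaving out 1 library or pair gave 97.8 to 135 members per library, 0.0102 to 0.209 for the tissue share, −0.0894 to −0.0448 for the age share, −0.00938 to 0.0722 for the cross (below 0 without the P7 cerebellum male pair), 70 to 131 members by tissue, 33 to 48 by age and 0 by cross. Rank differences stayed between −17.2 and −16.2 and between −25.4 and −24.7, and the purine-rich difference between 15.2 and 18.1. Permuting the cross without the replicate block gave the same difference, 0.0248 (exact permutation p = 0.862). Rank and purine-rich differences kept their direction and passed their tests in every setting run. Of the 12 tissue members that the naming rule gave, none changed direction. All 12 lost their call with P7 libraries alone (Fisher's exact test, adjusted p = 0.192), and Lrp1 and Exoc5 lost it with 50% cover. Of the members, 18.6% were called in 1 library, against 18.1% of all regions. The peak lists give no count behind a call, so the part of depth in weak calls was not tested.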
